A study of Mus musculus with 77 samples.

Results

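Genes of the eIF2α stress response, several of whose mRNAs carry upstream open reading frames (uORFs), were followed in livers of mice that lacked one of the iron regulatory proteins (IRPs). The 9 genes were taken by name from the 25266 listed in the files: Atf4, Atf5, Ddit3, Ppp1r15a, Ppp1r15b, Eif2ak1, Asns, Trib3 and Sesn2. All 9 passed the filter on low CDS counts that left 10696 genes for testing, although Ddit3 had only 68 footprints and 81 RNA reads in its CDS over all livers. For the ratio of 5′ UTR to CDS footprints, 5 members passed the filter and 4 (Ddit3, Eif2ak1, Asns and Sesn2) did not.

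A uORF is a short reading frame in the 5′ UTR that captures scanning ribosomes before they reach the coding sequence (CDS). When a kinase phosphorylates the initiation factor eIF2α, less initiator tRNA is available, most mRNAs are translated less, and mRNAs with suitable uORFs, such as Atf4, Atf5, Ddit3 and Ppp1r15a, are translated more. In the liver the kinases respond to scarce amino acids, unfolded protein in the endoplasmic reticulum (ER), viral RNA and, for the kinase encoded by Eif2ak1 (HRI), scarce heme, which links this pathway to iron.

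The livers came from 24 male mice on a C57BL/6J background, aged 12 to 24 weeks, 3 for each of Aco1+/+, Aco1-/-, Ireb2+/+ and Ireb2-/- at ZT5 and at ZT12 (zeitgeber time, hours since the lights came on). Aco1-/- mice lack IRP1 (allele tm1.1Mwh) and Ireb2-/- mice lack IRP2 (allele tm1.2Mwh) in the whole body, so that a difference need not arise in hepatocytes, and each knockout was set against the wild types of its own line. Mice were kept in alternating light and dark of 12 h each with free access to food. Each liver gave 1 library of ribosome-protected fragments (RPFs) and 1 of total RNA. The RPFs of Aco1 were at 74.83 to 123.2 CPM (counts scaled to the size of the library) in the 6 Aco1-/- livers and at 347.1 to 591.3 in the 6 Aco1+/+ livers, and those of Ireb2 at 32.5 to 41.2 in Ireb2-/- and 62.3 to 81.4 in Ireb2+/+ livers, so that both labels matched the targeted gene. Aco1-/- livers still held Aco1 mRNA, and Ireb2 mRNA was no lower in Ireb2-/- livers at ZT5 (from 120.3 CPM, against a lowest value of 71.55 in Ireb2+/+ livers). An RNA library held 852293 to 3993492 counts in coding sequences and an RPF library 2448915 to 13439600. The deposited count columns carry no names and were read from their values as 5′ UTR, CDS and 3′ UTR.

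Asns, which makes asparagine from aspartate, is a classical target of the transcription factor ATF4, and is shown here because ATF4 acts on a composite C/EBP-ATF site. Its sequence before the transcription start, on the minus strand at chr6:7693214-7693243 (GRCm38.p6, RefSeq), holds that motif in capitals.
Asns: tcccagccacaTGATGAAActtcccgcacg
The letters TGATGNAA, searched on both strands over the 250 bases before each start, lie 23 to 16 bases before the start of Asns. They were found in 3.45% of 32851 such windows and in 1 of the 8 members for which a window was given, and a missing match says only that these letters are not in that window.

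The members differed in how many footprints their 5′ UTR carried for those in the CDS and for their RNA. Footprints, and separately RNA reads, were summed over the 24 livers, and the sum of the 5′ UTR was divided by that of the CDS. Dividing the RPF ratio by the RNA ratio removes the lengths of both regions. This comparison was added after the data were seen, and it describes the genes without a test. Among 4837 genes with at least 50 counts in each of the 4 sums, the median RPF ratio was 0.0645, and 95 of them (1.96%) had more footprints in the 5′ UTR than in the CDS.

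Atf5 (chr7:44812256-44816658, GRCm38.p6), a transcription factor of the ATF4 family, had 7695 footprints in its 5′ UTR against 2641 in its CDS, a ratio of 2.91, whereas the ratio in RNA was 0.205. The RPF ratio was 14.2 times the RNA ratio, rank 1 of 4837 genes, and rank 3 of 6649 genes when the minimum was 20 counts. Atf4 (chr15:80255184-80257545), the main effector of the pathway, had 3352 footprints before and 3085 within its CDS, a ratio of 1.09 that was 5.97 times its RNA ratio (rank 26). Ppp1r15b (chr1:133131166-133139800), the constitutive regulatory subunit of the eIF2α phosphatase, had a ratio of 0.598, which was 4.57 times the RNA ratio (rank 49). The median of all measured genes on this last scale was 0.478. On that scale the 3 mRNAs stood at percentiles 99.98, 99.46 and 98.99 of the measured genes.

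Ppp1r15a, which encodes the stress-induced subunit of the same phosphatase (GADD34), also had more footprints in the 5′ UTR than in the CDS, 284 against 205, but only 38 RNA reads in the 5′ UTR, too few for a rank among the 4837 genes. With the minimum of 20 counts it was rank 2 of 6649, above Atf5, its RPF ratio being 26.9 times the RNA ratio. For Ddit3, which encodes CHOP, the 54 footprints before and 68 within the CDS gave a ratio of 0.794. The other members were near or below the median gene once RNA was taken into account. Eif2ak1 had 71 footprints in the 5′ UTR and 4615 in the CDS, and its RPF ratio was 0.278 times the RNA ratio. The corresponding values were 0.325 for Trib3, a pseudokinase that inhibits ATF4 and AKT signalling, 0.372 for Asns (46 RNA reads in the 5′ UTR) and 0.484 for Sesn2, a stress-induced inhibitor of mTORC1. Before RNA was taken into account, the RPF ratios of Trib3 (0.109, percentile 66.4) and Sesn2 (0.13, percentile 70.6) lay above the median gene. Parts of Atf5, Ppp1r15a, Ddit3 and Eif2ak1 share genomic positions with other protein-coding genes, among them 571 bases of Atf5 with Nup62 and 730 of Ppp1r15a with Tulp2. As the strand setting of the counting was not given, reads in those stretches cannot be told apart.

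**Figure D1:**
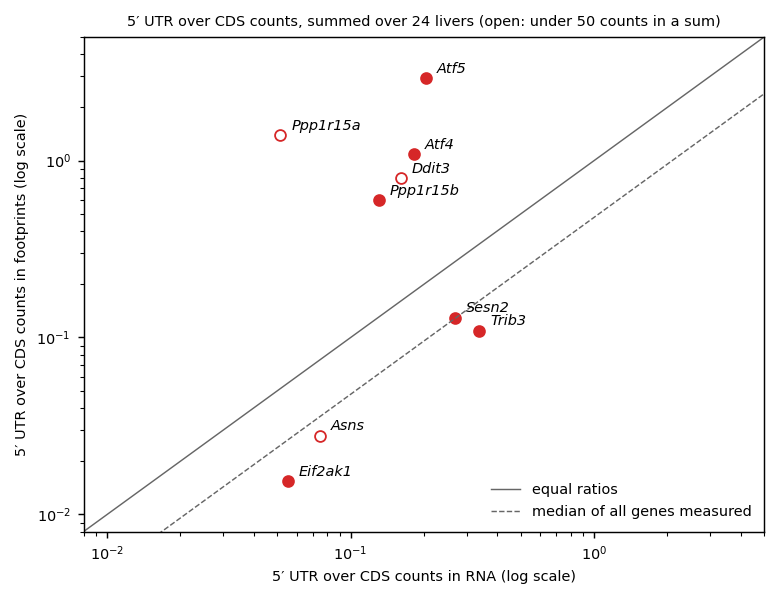
Ratio of 5′ UTR to CDS counts in RPF libraries (y axis, log scale) against the same ratio in RNA libraries (x axis, log scale), each summed over the 24 livers, 1 point per member. Atf5, Ppp1r15a, Atf4, Ddit3 and Ppp1r15b lie above the line of equal ratios, and the other 4 lie near or below the dashed median of 4837 genes. Open points have under 50 counts in at least 1 sum.

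Atf4, Atf5, Ppp1r15a, Ppp1r15b and Ddit3 had few CDS footprints for their RNA, a measure that shares its CDS counts with the 5′ UTR to CDS ratio and is not independent of it. Translation efficiency (TE) is the RPF over the RNA level of the CDS, on the log2 scale, and its mean over the 24 livers had a median of 0.08 over the 10696 genes. Ppp1r15a was at -2.99, lower than all but 0.608% of genes, Atf4 at -1.94 (percentile 3.28), Atf5 at -1.93 (3.38), Ppp1r15b at -1.31 (9.25) and Ddit3 at -1.29 (9.63). Eif2ak1 was at -0.62 (percentile 24), and Sesn2 at 0.42, Asns at 0.75 and Trib3 at 0.78 were above the median gene. Among the 5 low members the spread over livers differed, with a SD of 0.178 for Ppp1r15b, 1.17 for Ppp1r15a, which had no CDS footprint in 1 liver, and 1.39 for Ddit3, which had none in 2.

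The next question was whether loss of either IRP changed the members. Knockouts were compared with the wild types of their line at each timepoint by edgeR's quasi-likelihood test, with Benjamini-Hochberg adjustment over all genes and a threshold of 0.05. None of the 9 members passed in RNA, RPF or TE in any of the 4 comparisons. At an unadjusted p under 0.05, 1 of 36 values passed in RNA, 2 in RPF and 3 in TE. Of the 10696 genes, 399 and 819 had such a p in RNA for Aco1-/- at ZT5 and ZT12, and 603 and 450 for Ireb2-/-. In RPF these counts were 298, 1355, 817 and 815, and in TE 272, 718, 750 and 381. DESeq2 also called 0 members, with 1, 3 and 1 values at an unadjusted p under 0.05, and gave no adjusted p for 0, 7 and 9 of the 36. Few genes passed at all. In RNA 0% of genes passed for Aco1-/- at ZT5, 0.00935% at ZT12, and for Ireb2-/- 0.00935% at ZT5 and 0.0187% at ZT12. The RPF shares were 0.00935% and 0.299% for Aco1-/- and 0.0654% and 0.028% for Ireb2-/-, and the TE shares were 0.00935% and 0.0935% for Aco1-/- and 0.00935% and 0% for Ireb2-/-.

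The member with the smallest p was Atf5. Its log2 TE at ZT5 was -1.44, -1.75 and -1.59 in the 3 Ireb2-/- livers and -2.16, -2.14 and -3.03 in the 3 Ireb2+/+ livers. The groups did not overlap, and the difference of 0.84 ± 0.21 (SE, n = 3 per group) had an adjusted p of 0.429 in edgeR. At ZT12 the same difference was within the spread, and the change of the genotype effect between the timepoints did not pass (adjusted p = 0.91). Atf4 RPFs were at 17.6, 12.7 and 12.7 CPM in Aco1-/- and 22.1, 18.8 and 17.8 CPM in Aco1+/+ livers at ZT12. All 3 knockout values lay below the 3 wild-type values, by 0.44 ± 0.20 on the log2 scale (edgeR adjusted p = 0.383). Eif2ak1, which encodes the heme-sensing kinase, was at 32.9 to 60.6 CPM in RNA in the 12 livers of ZT5 and 37.4 to 63.6 in the 12 of ZT12, and no comparison of genotypes passed for it in edgeR. Its RPFs at ZT12 were at 29.6, 25.7 and 28.1 CPM in Ireb2-/- and 35.1, 33.8 and 31.9 in Ireb2+/+ livers, which did not overlap (-0.27 ± 0.14, adjusted p = 0.675). Such cases were picked from many comparisons after the values were seen. The share of all genes whose groups of 3 livers did not overlap was not counted, here or below.

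**Figure D2:**
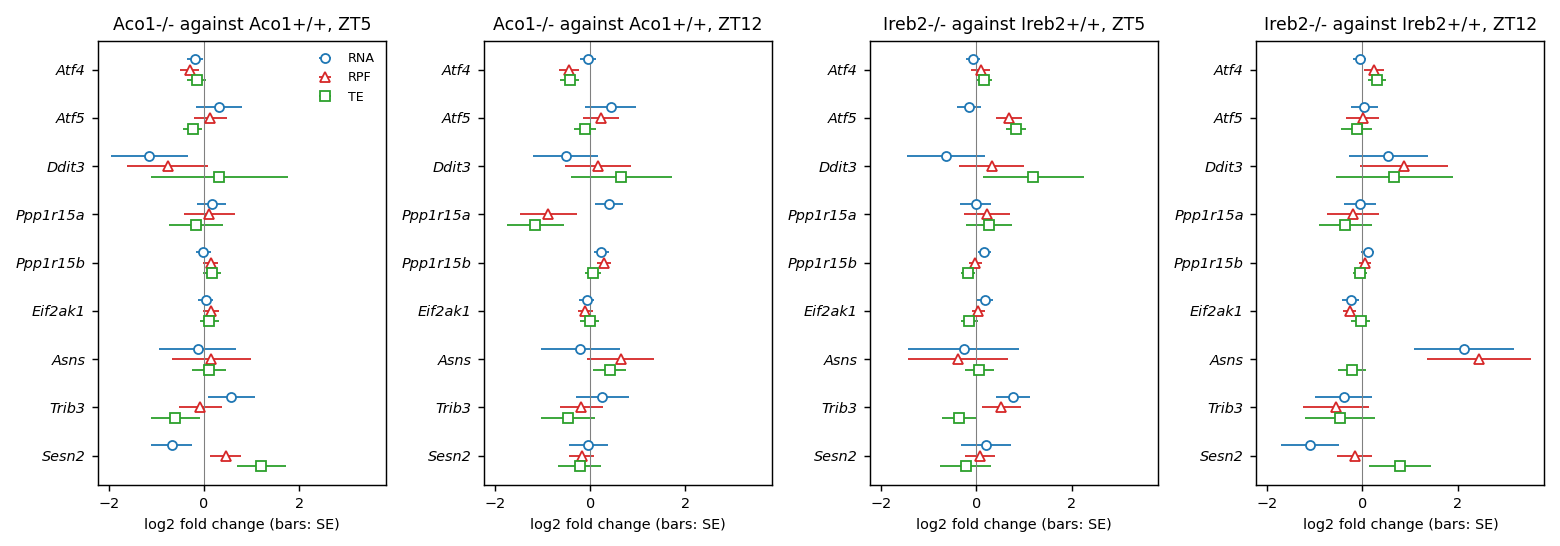
Log2 fold change of each member, knockout over wild type (x axis), in RNA, RPF and TE for both lines and both timepoints, with bars for the SE and 3 livers per group. No point is filled, since no member had an adjusted p below 0.05. The estimates farthest from 0 are those of Asns in the Ireb2 line at ZT12, 2.14 ± 1.05 in RNA and 2.45 ± 1.09 in RPF.

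The ratio of 5′ UTR to CDS footprints was tested in one model of both columns with a term for the mouse, over 3149 genes. None of the 5 members tested passed between genotypes, while 2 of 20 values had an unadjusted p under 0.05. Of the 3149 genes, 30 at ZT5 and 912 at ZT12 had such a p for Aco1-/-, and 331 and 90 for Ireb2-/-. Of all genes, 0% passed for Aco1-/- at ZT5 and for Ireb2-/- at ZT5 and at ZT12. For Aco1-/- at ZT12, 12% passed, with a median log2 change over all genes of -0.39. The 5′ UTR share was thus lower in the median gene. Ppp1r15b ratios were 0.353, 0.446 and 0.338 in these Aco1-/- livers and 0.805, 0.511 and 0.686 in Aco1+/+. All 3 knockout ratios were lower, and the fitted change was -0.80 ± 0.31 (edgeR adjusted p = 0.0773). With the 5′ UTR columns on their own scale it was -0.50 ± 0.28 (adjusted p = 0.256). With a minimum count of 30 it passed, at -0.80 ± 0.27 (adjusted p = 0.0323). Atf4 ratios at ZT5 were 0.881, 1.13 and 1.12 in Ireb2-/- and 0.636, 0.671 and 0.513 in Ireb2+/+ livers, which did not overlap either, and the change of 0.78 ± 0.34 had an adjusted p of 0.426, where the median of all genes was 0.36. For the 4 members below the filter, exact two-sided permutation tests of the log2 ratio (n = 3 per group) gave p from 0.1, the smallest possible with 3 against 3, to 1.

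Members passed between the timepoints, a comparison of 12 livers with 12. Over all genotypes edgeR called 3 of 9 members in RNA, 4 in RPF and 1 in TE. Of all genes, 22.3% passed in RNA, 31.8% in RPF and 0.486% in TE, and 3 and 4 of only 9 members are not far from those shares in RNA and RPF. Trib3, Atf5 and Atf4 were lower at ZT12 and Ppp1r15b was higher. In whole liver, fewer cells of a type and less RNA per cell cannot be told apart.

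Atf5 fell in RNA and in footprints alike. Its RNA ranged from 64.3 to 157 CPM at ZT5 (median 90.5) and from 25.7 to 84.7 at ZT12 (median 36.4). Its RPFs ranged from 16.1 to 45.3 CPM at ZT5 (median 25.7) and from 6.72 to 17.7 at ZT12 (median 9.20). A few livers of the timepoints overlapped in each. Atf5 RNA was 2.27-fold lower at ZT12 (log2 change -1.18 ± 0.21, SE, adjusted p = 0.000646), its RPFs 2.52-fold lower (-1.33 ± 0.19, adjusted p = 2e-05), and its TE changed by -0.08 ± 0.11 (adjusted p = 0.899).

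Trib3, whose transcription ATF4 and CHOP drive, was also lower at ZT12. Its RNA ranged from 1.90 to 11.8 CPM at ZT5 (median 4.40) and from 0.655 to 3.87 at ZT12 (median 2.13), on 1 to 43 counts a library. RPFs ranged from 4.28 to 23.4 CPM (median 7.61) and from 1.68 to 6.91 (median 2.89). Ireb2-/- livers at ZT5 had 11.5, 19.7 and 23.4 CPM of RPFs and Ireb2+/+ livers 18.3, 14.1 and 6.12, so that the 5 highest values came from that line, while Aco1-/- livers had 4.28, 4.43 and 7.79 and Aco1+/+ livers 4.71, 7.43 and 4.55. The fall was 2.19-fold in RNA (-1.13 ± 0.26, edgeR adjusted p = 0.00101) and 2.7-fold in RPFs (-1.43 ± 0.27, adjusted p = 0.000424).

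Atf4 differed from Atf5 in that its RNA did not pass. Atf4 RNA ranged from 71.6 to 103 CPM at ZT5 (median 82.2) and from 58.8 to 103 at ZT12 (median 76.9), a log2 change of -0.15 ± 0.08 (adjusted p = 0.191). Its RPFs ranged from 18.0 to 36.3 CPM at ZT5 (median 24.9) and from 12.7 to 22.9 at ZT12 (median 17.7). RPFs fell 1.44-fold (-0.53 ± 0.11, adjusted p = 0.000346) and TE fell 1.30-fold (-0.38 ± 0.09, adjusted p = 0.0428). Atf4 was the only member called in TE, and the call was narrow: it was lost in 15 of 24 refits that each left out 1 mouse, with adjusted p up to 0.153. It was also lost with the first sequencing run alone (-0.52 ± 0.14, adjusted p = 0.0647) and with RNA counted over all columns (-0.26 ± 0.09, adjusted p = 0.0983), a count in which Atf4 RNA itself fell by 0.27 ± 0.08 (adjusted p = 0.0101).

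Ppp1r15b moved the other way. Its RNA ranged from 74.0 to 107.6 CPM in the 12 livers at ZT5 and from 112.7 to 163.6 CPM in the 12 at ZT12, with no overlap. RPFs ranged from 30.02 to 43.1 CPM (median 36.4) at ZT5 and from 41.7 to 63.6 (median 52.4) at ZT12, and overlapped only narrowly. RNA rose 1.37-fold (0.46 ± 0.07, edgeR adjusted p = 3.72e-06) and RPFs 1.47-fold (0.55 ± 0.07, adjusted p = 5.19e-07). TE changed by 0.09 ± 0.08 (adjusted p = 0.804). Its inducible partner Ppp1r15a was at 6.399 to 16.7 CPM in RNA at ZT5 and 5.16 to 19.1 at ZT12 (0.08 ± 0.17, edgeR adjusted p = 0.779), and its RPFs changed by -0.41 ± 0.28 (adjusted p = 0.268). In the Aco1 line the few RPFs of Ppp1r15a, 0 to 16 counts a library, were lower at ZT12 without overlap in both genotypes, at 2.08, 2.04 and 1.82 against 1.29, 1.62 and 1.32 CPM in Aco1+/+ livers (adjusted p = 0.635) and 2.21, 1.77 and 2.503 against 0, 1.21 and 1.26 in Aco1-/- livers (adjusted p = 0.11). In the Ireb2 line they overlapped, with changes of 0.39 ± 0.47 in Ireb2+/+ and -0.04 ± 0.56 in Ireb2-/- livers, and the difference between the lines did not pass in edgeR (1.18 ± 0.56, adjusted p = 0.243).

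**Figure D3:**
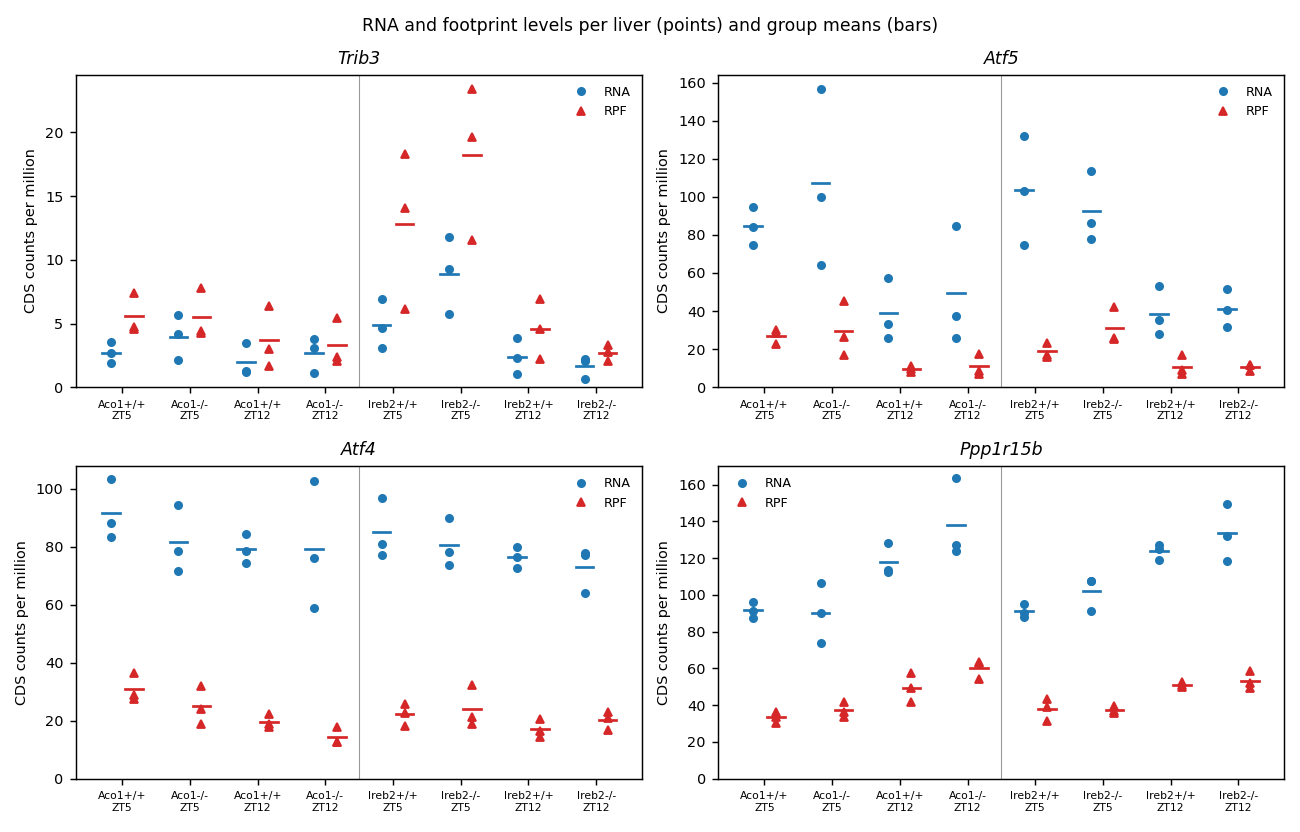
CDS counts in CPM (y axis) of Trib3, Atf5, Atf4 and Ppp1r15b in RNA (circles) and RPF (triangles) libraries, 1 point per liver and a bar at the mean of each of the 8 groups. Trib3 RPFs are highest at ZT5 in the Ireb2 line, and every ZT12 value of Ppp1r15b RNA, from 112.7 CPM upwards, lies above every ZT5 value.

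Within single genotypes, where 3 livers stood against 3, Ppp1r15b RPFs were called higher at ZT12 in 4 of 4 genotypes. The log2 changes were 0.56 ± 0.16 in Aco1+/+, 0.70 ± 0.15 in Aco1-/-, 0.44 ± 0.13 in Ireb2+/+ and 0.52 ± 0.13 in Ireb2-/- livers. Atf5 RPFs were called lower in Aco1+/+ (-1.54 ± 0.36), Aco1-/- (-1.44 ± 0.36) and Ireb2-/- livers (-1.52 ± 0.32), and changed by -0.83 ± 0.30 in Ireb2+/+ livers (edgeR adjusted p = 0.122). Atf4 RPFs were called in both genotypes of the Aco1 line, at -0.67 ± 0.20 in Aco1+/+ and -0.81 ± 0.21 in Aco1-/-. The call in Aco1+/+ was lost with TMM scaling and with the first run alone (edgeR adjusted p up to 0.241). In the Ireb2 line the values were -0.39 ± 0.20 in Ireb2+/+ and -0.24 ± 0.21 in Ireb2-/- livers (adjusted p = 0.264 and 0.58). Trib3 RPFs were called in Ireb2-/- livers, 6.68-fold lower (-2.74 ± 0.56), and RNA there was 5.1-fold lower (-2.35 ± 0.47). In Ireb2+/+ livers its RPFs changed by -1.66 ± 0.50 (edgeR adjusted p = 0.0765, DESeq2 0.00584), and in Aco1+/+ and Aco1-/- livers by -0.63 ± 0.44 and -0.73 ± 0.47 (edgeR adjusted p = 0.455 and 0.327). Atf5 RNA was called in both genotypes of the Ireb2 line and Ppp1r15b RNA in Aco1-/-.

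The backgrounds of these calls were 7.05% of genes in Aco1+/+, 5.15% in Aco1-/-, 2.29% in Ireb2+/+ and 2.77% in Ireb2-/- in RNA, and 6.64%, 12.1%, 7.53% and 5.73% in RPF. In TE 0 members were called, with 5 of 36 values at an unadjusted p under 0.05 in edgeR. Of the 10696 genes, 801 had such a p in Aco1+/+, 861 in Aco1-/-, 879 in Ireb2+/+ and 483 in Ireb2-/- livers. DESeq2 called 0 members in TE (4 of 36 unadjusted) and gave no adjusted p for 9 of the 36. The TE shares of all genes were 0.0187%, 0.15%, 0.533% and 0.00935%. Ppp1r15b RPFs in Aco1-/- and Trib3 RNA in Ireb2-/- kept their call whichever mouse was left out, although DESeq2 gave the latter no adjusted p. The other within-genotype calls were lost in 2 to 5 of 6 such refits, and their adjusted p rose to at most 0.266. In Aco1+/+ livers the calls of Atf4 and Atf5 were kept only without ZT5 replicate 3 and that of Ppp1r15b only without ZT12 replicate 3. In Aco1-/- livers Atf4 RPFs lost their call without ZT5 replicate 1 or ZT12 replicate 2, and Atf5 RPFs also without ZT12 replicate 1. Ppp1r15b RNA lost its call there without ZT5 replicate 1 or ZT12 replicate 3. In Ireb2+/+ livers the call of Ppp1r15b RPFs was kept only without ZT5 replicate 3, and that of Atf5 RNA was lost without ZT5 replicates 2 or 3 or ZT12 replicate 1. In Ireb2-/- livers the call of Trib3 RPFs was kept only without ZT5 replicate 1. Atf5 RPFs lost theirs there without ZT12 replicates 1 or 2, Ppp1r15b RPFs without ZT5 replicates 2 or 3 or ZT12 replicate 1, and Atf5 RNA kept its call only without ZT5 replicate 3 or ZT12 replicate 2.

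That Trib3 passed in one genotype and Atf4 in one line does not show that they differ from the others, and the differences themselves were tested. Between the genotype effects at ZT12 and at ZT5, edgeR called 0 members in either line. At an unadjusted p under 0.05 were 0 of 18 values in RNA, 0 in RPF and 2 in TE. Of the 10696 genes, 508 in the Aco1 line and 562 in the Ireb2 line had such a p in TE. DESeq2 called 0 members (0, 0 and 1 unadjusted) and gave no adjusted p for 4 of the 18 values in RPF. Of all genes, 0% passed in RNA and RPF, and in TE 0.028% in the Aco1 line and 0% in the Ireb2 line. A test of whether the change from ZT5 to ZT12 differed between the lines, chosen after the data were seen, also called 0 members in edgeR, against 0.00935% of genes in RNA, 3.19% in RPF and 0.0841% in TE. At an unadjusted p under 0.05 were 1, 3 and 2 of the 9 members, beside 932, 2045 and 1050 of the 10696 genes. For Trib3 RPFs the change of the Ireb2 line minus that of the Aco1 line was -1.504 ± 0.54 in log2 units (adjusted p = 0.136 in edgeR), and DESeq2 called it (-1.48 ± 0.48, adjusted p = 0.0349). For TE the difference between the lines was 0.45 ± 0.19 for Atf4 and 1.59 ± 0.56 for Ppp1r15a (edgeR adjusted p = 0.407 and 0.282), the latter on 0 to 16 CDS footprints a library.

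**Figure D4:**
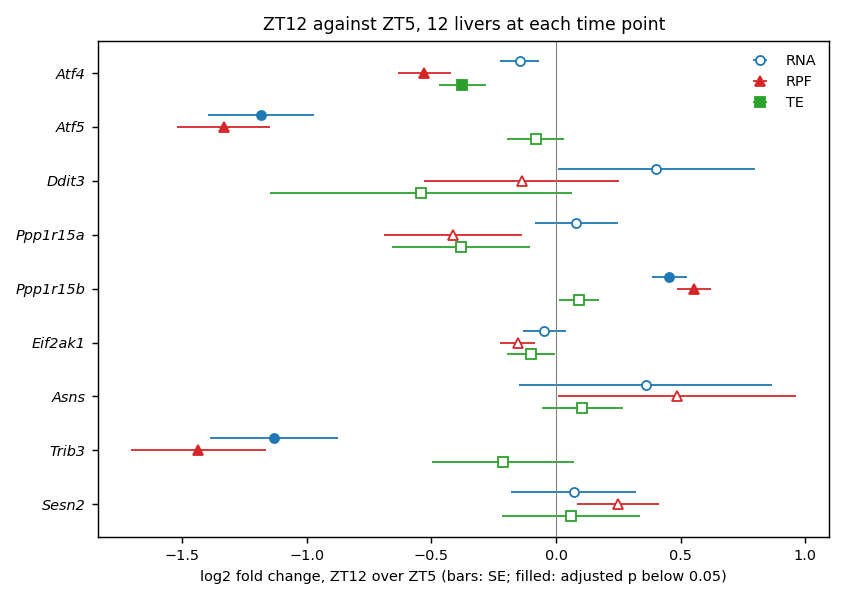
Log2 fold change of each member, ZT12 over ZT5 (x axis), over 12 livers at each timepoint in RNA, RPF and TE, with bars for the SE and filled points where the adjusted p was below 0.05. Atf5 and Trib3 are lower at ZT12 in RNA and RPF, Atf4 in RPF and TE, and Ppp1r15b is higher in RNA and RPF.

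The ratio of 5′ UTR to CDS footprints changed with time in none of the 5 members tested by edgeR, against 0.603% of the 3149 genes. An unadjusted p under 0.05 was found for 2 of the 5, and for 452 of the 3149 genes. Ppp1r15b ratios ranged from 0.586 to 1.06 at ZT5 (median 0.722) and from 0.338 to 0.805 at ZT12 (median 0.483), a log2 change of -0.51 ± 0.16 (adjusted p = 0.112), where the median of all genes was -0.14. Atf4 ratios ranged from 0.513 to 1.84 (median 1.12) and from 0.745 to 2.03 (median 1.25), a change of 0.35 ± 0.17 (adjusted p = 0.33). Atf5 ratios ranged from 1.80 to 4.07 (median 2.61) and from 1.98 to 6.01 (median 3.48), a change of 0.34 ± 0.18 (adjusted p = 0.376). In every liver the 5′ UTR of Atf5 held more footprints than its CDS.

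Of the members not called over time, Asns had the widest range in CPM between livers of one group. At ZT12 its RPFs were at 16.7, 101 and 20.0 CPM in Ireb2-/-, 3.12, 21.8 and 2.91 in Ireb2+/+, 31.0, 12.7 and 3.97 in Aco1-/- and 6.21, 12.7 and 12.2 in Aco1+/+ livers. Replicate 2 of Ireb2-/- stood far above the rest in both libraries, on 327 RPF counts. Without it the change of Ireb2-/- against Ireb2+/+ at ZT12 went from 2.14 ± 1.05 to 0.67 ± 1.03 in RNA and from 2.45 ± 1.09 to 1.17 ± 1.06 in RPF, with edgeR adjusted p of 0.664 or more with and without that liver. Replicate 2 of Ireb2+/+ also stood above its group, and without it the change was 4.42 ± 1.66 in RNA and 3.91 ± 1.25 in RPF (adjusted p = 0.999 and 0.442). Over time, Asns RPFs changed by 0.49 ± 0.48 (adjusted p = 0.477). Its log2 TE stayed between 0.20 and 1.61 in all 24 livers, while its RNA ranged from 0.644 to 71.9 CPM. Among the genes whose log2 RNA levels followed Asns most closely over the 24 livers were Sgce (Pearson r = 0.631) and Serpina1e (0.628), and for Atf4 the 3 closest were Erc2 (0.767), Ssb (0.746) and Tra2a (0.691). These values are a description over livers of 8 groups, and livers of 1 group share genotype and timepoint.

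**Figure D5:**
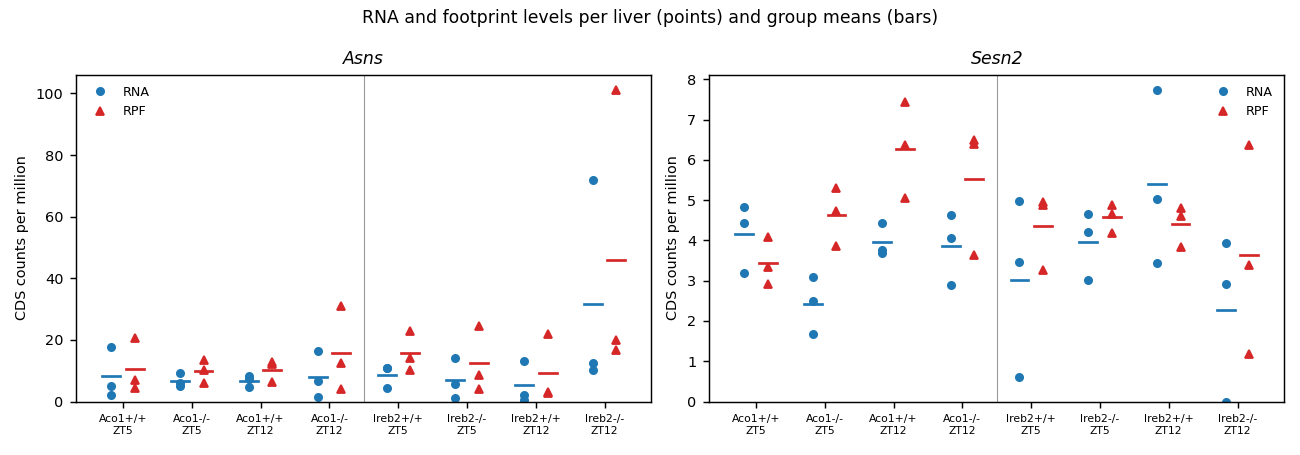
CDS counts in CPM (y axis) of Asns and Sesn2 in RNA (circles) and RPF (triangles) libraries, 1 point per liver and a bar at the mean of each of the 8 groups. Asns in the Ireb2-/- group at ZT12 is set by 1 liver at 71.9 CPM in RNA and 101 in RPF, and Sesn2 stays below 8 CPM in every library.

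Sesn2 RNA rested on 0 to 18 counts a library. At ZT5 it was at 1.68, 2.50 and 3.10 CPM in Aco1-/- livers, below 4.83, 3.20 and 4.44 in Aco1+/+ livers (-0.68 ± 0.43, edgeR unadjusted p = 0.124). Its RPFs at ZT5 and ZT12 were 2.91, 3.34 and 4.09 CPM against 5.04, 7.43 and 6.36 in Aco1+/+ livers, which did not overlap (0.92 ± 0.29, edgeR adjusted p = 0.0643). In the other groups they overlapped, with changes of 0.29 ± 0.29 in Aco1-/-, 0.01 ± 0.32 in Ireb2+/+ and -0.23 ± 0.37 in Ireb2-/- livers. The difference between the lines was -0.73 ± 0.33 (edgeR adjusted p = 0.221), and over all genotypes the change was 0.25 ± 0.16 (adjusted p = 0.266). Eif2ak1 RPFs were at 26.6 to 40.1 CPM at ZT5 and 24.03 to 35.1 at ZT12 (-0.15 ± 0.07, adjusted p = 0.0943). Ddit3, with 0 to 10 RNA counts and 0 to 7 RPF counts a library, changed over time by 0.40 ± 0.40 in RNA and -0.14 ± 0.39 in RPF (adjusted p = 0.511 and 0.828).

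The rest of the pathway was read from lists set down with the members. Of all genes, 9.71% were higher and 12.5% lower at ZT12 in RNA, and 13.6% were higher and 18.2% lower in RPF, beside which the counts of the lists stand without a test. Of 14 eIF2 kinases and factors tested, 1 was higher and 0 lower at ZT12 in RNA, and 5 were higher and 1 lower in RPF. Eif2ak3, the ER stress kinase PERK, rose in RNA (0.55 ± 0.11, edgeR adjusted p = 0.000214). In RPF Eif2a (0.51 ± 0.08) and the eIF2B subunits Eif2b1 (0.33 ± 0.07) and Eif2b3 (0.38 ± 0.10) had the smallest adjusted p of those higher, and Eif2ak4, the amino acid sensing kinase GCN2, fell (-0.43 ± 0.13, adjusted p = 0.0134). The median of this list was -0.01 in RNA and 0.02 in RPF, beside -0.04 in both over all genes.

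Of 17 other ATF4 target genes tested, 4 were higher and 1 lower at ZT12 in RNA and again 4 and 1 in RPF, with medians of 0.11 and 0.08. In RNA the transcription factor gene Cebpb (0.92 ± 0.11), Gpt2 (0.53 ± 0.08), an alanine transaminase, and Slc38a2 (0.67 ± 0.13), an amino acid transporter, were higher, and Cth (-0.51 ± 0.07), of cysteine synthesis, was lower. In RPF the same 3 were higher, at 0.96 ± 0.11, 0.64 ± 0.07 and 0.64 ± 0.14, and Cth fell by 0.63 ± 0.09. The 4th higher gene was Chac1 in RNA (1.74 ± 0.50), of glutathione breakdown, and Ddit4 in RPF (1.10 ± 0.28), an inhibitor of mTORC1. Of 6 other mRNAs with known uORFs, 3 were higher in RNA and 4 in RPF and 0 were lower in either, with medians of 0.38 and 0.32. Beside Cebpb they were Ifrd1 (0.54 ± 0.12 in RNA, 0.73 ± 0.17 in RPF), Azin1 (0.26 ± 0.09 and 0.24 ± 0.09) and, in RPF, Mief1 (0.40 ± 0.13).

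Of 7 ER stress chaperones and related genes, 2 were higher and 3 lower in RNA and in RPF, with a median of -0.06 in RNA and -0.01 in RPF. Herpud1 (1.17 ± 0.12 in RNA) and Dnajb9 (0.88 ± 0.12) were higher, and Pdia4 (-0.44 ± 0.07), Hsp90b1 (-0.35 ± 0.09) and Sdf2l1 (-0.69 ± 0.19) were lower. Of 6 immediate early genes, 1 was lower in RNA and in RPF and 0 were higher, with medians of -0.37 and -0.07: Junb, at -1.31 ± 0.39 and -1.20 ± 0.38. The summed level of this list stood apart in 1 Aco1+/+ liver at ZT5, at 337.8 CPM in RNA and 668.6 in RPF, where the median of that group was 57.6 and 96.2. No gene of these 5 lists was called in TE by edgeR between ZT12 and ZT5 over all genotypes. Within genotypes, Eif2s2 (1.06 ± 0.27, adjusted p = 0.0461) and Jun (1.07 ± 0.27, adjusted p = 0.0404) were called higher in TE in Ireb2+/+ livers. In the difference between the lines in the change from ZT5 to ZT12, the Ireb2 line less the Aco1 line, the eIF2 subunit gene Eif2s2 was called in RPF (0.91 ± 0.18) and TE (1.25 ± 0.28), and the ATF4 targets Shmt2 (-0.44 ± 0.11) and Gpt2 (-0.53 ± 0.13) in RPF. Between genotypes none was called in RNA, RPF or TE, and 2 in the ratio of Aco1-/- at ZT12, the comparison in which 12% of genes passed.

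Markers of other cell types were read beside the change with time. Cholangiocyte markers were lower at ZT12, 1 of 4 tested in RNA (Spp1) and 3 of 4 in RPF (Spp1, Sox9 and Epcam), with medians of -0.65 and -0.79. Their summed level was 16.8 to 53.8 CPM at ZT5 and 9.16 to 28.4 at ZT12 in RNA, with medians of 66.2 and 35.9 in RPF. Of 7 hepatocyte markers, 2 were higher in RNA (Cyp2e1 and Serpina1a) and 3 in RPF, with Alb, and 1 in TE (Cyp2e1). Endothelial markers were lower in 1 of 5 in RNA and 2 of 5 in RPF, and stellate markers in 0 of 6 and 1 of 6. None of 6 immune and 4 erythroid markers tested was called in RNA or RPF. The part of these cells in the fall of Atf5, Trib3 and Atf4 or the rise of Ppp1r15b was not tested.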

How the data were processed

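Per the labels and the study's methods, adapters were removed with cutadapt 3.5, reads were size-selected, reads of rRNA and tRNA were removed with Bowtie2, and the rest were mapped with STAR 2.70f to mouse GRCm38 with Ensembl 100 genes. The authors deposited raw counts per gene and sequencing run, not normalized; the tool that counted and its strand setting are not given in the sources used here. Counts of 77 runs were summed to 48 libraries (29 had 2 runs, the smaller of which held as few as 7819 counts in 1 case). The members and lists were chosen with earlier results of these data known.

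CDS counts that passed filterByExpr (minimum count 10, total 15) were scaled by the upper quartile and tested with edgeR 4.0.16 in R 4.3.3 (robust quasi-likelihood test, Benjamini-Hochberg adjustment over all genes tested), with 1 fit for each line or for all 24 mice. TE and the ratio of 5′ UTR to CDS counts had a term for the mouse. SEs were obtained by dividing the log2 change by the root of the F statistic. CPM are on the scaled library size, and logs used a pseudocount of 0.5. Nothing says that same-numbered mice were related, and their RNA deviations correlated above 0.1 in 3 of 36 pairs, so that replicates were taken as unpaired mice. All members, up to 3 genes of a list in each direction with the smallest adjusted p, and the 3 genes most correlated with Asns and Atf4 are named, except that 1 of them is not reported here; other genes were chosen after their values were seen. Alternatives included DESeq2 1.42.0 and limma 3.58.1. The models were tested on simulated data.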

Additional observations from a re-analysis of the deposited data

How the results depend on the processing

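Over the 24 mice the counts of members called with time, 3 in RNA, 4 in RPF and 1 in TE, were the same with TMM scaling, other filters on low counts, DESeq2 and the replicate number as a block (again 3, 4 and 1). In TE the count was 0 with the first sequencing run alone and with RNA over all columns, a setting in which the RNA count was 4, with Atf4 added. The 168 refits of called members under these alternatives kept the direction in 168 and the call in 155 (1 had no adjusted p), and 276 refits without 1 mouse kept the direction in 276 and the call in 217. The cause of the losses was not tested. Some came with fewer mice or fewer reads in the fit, and others with the same or more. The replicate block changed no count in any comparison. Within genotypes, the RNA count of Aco1-/- went from 1 to 0 with the first run and with all columns, that of Ireb2+/+ from 1 to 0 in a fit of all 24 mice, and that of Ireb2-/- from 2 to 1 with each of these 3 settings and with DESeq2, which gave Trib3 no adjusted p. The RPF count of Ireb2+/+ was 0 with the first run and 2 with DESeq2, which added Trib3. In the Aco1 line Atf4 RPFs in Aco1+/+ lost their call with TMM and with the first run, and Atf5 RPFs in Aco1-/- with the first run (adjusted p = 0.0957). The ratio of Aco1-/- at ZT12 gave 1 (Ppp1r15b) with a minimum count of 30, and the difference between the lines in RPF gave 1 (Trib3) with DESeq2. Leaving out 1 mouse, the counts ranged from 0 to 1 (RNA, Aco1-/-), 1 to 2 (RNA, Ireb2-/-), 0 to 1 (RNA, Ireb2+/+), 1 to 3 (RPF, Aco1-/-), 0 to 2 (RPF, Aco1+/+), 0 to 3 (RPF, Ireb2-/-), 0 to 2 (RPF, Ireb2+/+) and 0 to 1 (TE over all genotypes, and TE in Aco1-/-). Atf4 TE kept its call only without Aco1+/+ ZT5 replicates 2 and 3, Aco1+/+ ZT12 replicate 1, Aco1-/- ZT5 replicate 2, Aco1-/- ZT12 replicate 3, Ireb2+/+ ZT5 replicates 1 and 3, Ireb2+/+ ZT12 replicate 2 and Ireb2-/- ZT5 replicate 2. Atf5 RPFs in Aco1-/- changed by -0.95 without ZT5 replicate 1, Atf4 RPFs there by -1.32 with the first run alone, and Ppp1r15b RNA there by 0.37 with RNA over all columns. Members of few reads, Ddit3, Sesn2 and Trib3 in RNA, limit what depth can show.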
